A study of Drosophila melanogaster with 4 samples.

Results

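HP1a clusters on U, the unplaced sequence of the Drosophila melanogaster genome, made up 35.3% and 37.5% of the binding regions listed in the 2 replicates for larvae of the third instar. All clusters whose sequence name was exactly U were taken, which gave 1098 of 3110 clusters in replicate 1, 1144 of 3052 in replicate 2 and 1182 of 3891 in the series list. In the series list the share was 30.4%. U is a sequence of 10.0 Mb that is 7.19% of the length in the file headers without Uextra. Uextra, a second collection of unplaced sequence, carried no cluster in any list. The study immunoprecipitated chromatin from wild-type larvae of the strain Oregon-R with the antibody wa191 against HP1a, in 2 ChIP libraries, and sequenced 2 input libraries as their background. Each ChIP library has its own list, and the series list belongs to both. The inputs have no list here. Separate larval collections for the replicates are not stated in the labels, and their spread may be technical. Read numbers are unknown, and the smallest two-sided p of an exact permutation test over 2 paired libraries is 0.5. Differences are therefore set against the spread of the 2 replicates, with no test.

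HP1a is a chromodomain protein that binds histone H3 methylated at lysine 9 and packs chromatin into heterochromatin, which in flies lies around the centromeres, along chromosome 4 and over the Y. Heterochromatin consists largely of transposable elements and satellite repeats, and such sequence is hard to assemble. U collects scaffolds that were not assigned to a chromosome, strung together, so position along U is not position along a chromosome, and neighbours on U need not be neighbours in the nucleus. Reads from repeated sequence often match many places, and how such reads were treated is not given in the sources used here. Genes and sequence under the clusters were not analysed here.

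U carried many clusters per Mb, but less of it was covered than of assembled heterochromatin. It had 112 ± 3.2 clusters per Mb (SD, n = 2), against 53.6 ± 5.5 in assembled heterochromatin (XHet and both Het sequences of chromosomes 2 and 3), 122 ± 10.2 on YHet and 11.6 ± 0.15 on the major arms (X and both arms of chromosomes 2 and 3), as means of both replicates. Cover ran in another order, with 50.2% ± 6.0 of U, 74.8% ± 2.1 of assembled heterochromatin, 44.1% ± 8.4 of YHet and 85.5% ± 2.4 of chromosome 4 (SD, n = 2). The U clusters covered 4.62 Mb in replicate 1 and 5.47 Mb in replicate 2, or 24.2% and 26.8% of all covered bases. Both replicates covered the same 41.9% of U. A further 4.09% was covered in replicate 1 only and 12.5% in replicate 2 only, so the replicates differed mainly by what replicate 2 added. Neither replicate covered 41.5% of U, and 29.2% lay outside every list. The parts of U where no read could be placed are unknown, so an uncovered base is not a base shown to lack HP1a.

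Clusters on U were short. Widths ran from 1301 to 74474 bp with a median of 2529 bp in replicate 1, and from 1301 to 77538 bp with a median of 2931 bp in replicate 2. The mean of both medians was 2730 ± 284 bp, against 2792 ± 891 bp on YHet and 2069.5 ± 0.71 bp on the major arms (SD, n = 2). It was far below the 7729 ± 662 bp of assembled heterochromatin and the 9371 ± 249.6 bp of chromosome 4, by more than the spread between the replicates. Clusters under 3 kb made up 58.5% of the U clusters in replicate 1 and 52.1% in replicate 2, against 25.3% ± 0.78 in assembled heterochromatin. Clusters of 10 kb or more numbered 79 in replicate 1 and 101 in replicate 2 and held 33.0% and 36.5% of the summed width. In assembled heterochromatin such clusters held 81.9% ± 4.0 of the summed width. Most of the bound sequence of U therefore lay in clusters of under 10 kb.

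The widest clusters were found alike in both replicates. The widest of replicate 1 spanned U from 355779 to 430252 (74.5 kb) with a value of 2.14 on the log2 scale, and 99.99% of it was covered in replicate 2. Its match, the widest of replicate 2, spanned 352708 to 430245 (77.5 kb) with a value of 2.20. The second, from 1314592 to 1388398 (73.8 kb), had a value of 2.09 in both replicates, and the replicate 2 cluster spanned 1314505 to 1387952. The third, from 569782 to 640000 (70.2 kb) with a value of 2.15, had its match from 570318 to 640028 with a value of 2.17. At these 3 sites the replicates' starts and ends lay within 3.07 kb of each other, and the values differed by at most 0.06. All 3 lay in the first 2 Mb of U.

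The values on U were near those of YHet and assembled heterochromatin. They showed little rank correlation with width, though their medians differed between width classes. The median value was 2.26 in replicate 1, with quartiles of 1.92 and 2.71, and 2.24 in replicate 2, with quartiles of 1.91 and 2.66. Read as log2 enrichment, the medians correspond to 4.79-fold and 4.71-fold. No header names this unit or says what the enrichment is over. The mean of both medians was 2.25 ± 0.02 on U, against 2.18 ± 0.09 on YHet, 2.08 ± 0.03 in assembled heterochromatin and 0.75 ± 0.04 on the major arms (SD, n = 2). The lowest U values in replicates 1 and 2 were 0.50 and 0.63, against 0.64 and 0.46 in assembled heterochromatin and 1.34 and 1.48 on YHet. By width class, the replicate 1 medians on U were 2.19 under 2 kb and 2.40 at 2 to 3 kb. They were 2.32 at 3 to 5 kb and 2.10 both at 5 to 10 kb and at 10 kb or more. The replicate 2 medians in the same order were 2.18, 2.30, 2.30, 2.23 and 2.05. Across clusters, the Spearman correlation of width and value on U was -0.08 in replicate 1 (1098 clusters) and -0.04 in replicate 2 (1144 clusters). The same correlation averaged 0.18 ± 0.04 in assembled heterochromatin, 0.58 ± 0.05 on chromosome 4 and 0.74 ± 0.03 on the major arms (SD, n = 2). On YHet it was 0.31 in replicate 1 and 0.08 in replicate 2, over 45 and 40 clusters. These are descriptions across clusters, which share a library and are not independent.

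The highest values on U belonged to narrow clusters with no match or a lower value in the other replicate. In replicate 1 the highest value, 5.06, stood at 2277370 to 2280071 (2702 bp), where the overlapping cluster of replicate 2 had 2.92. The next, 5.00 at 7100216 to 7102484 (2269 bp), met a replicate 2 value of 3.21, and the third, 4.87 at 1575881 to 1577259 (1379 bp), met no cluster of replicate 2. In replicate 2 the highest value was 5.38, at 6422124 to 6424636 (2513 bp), with no cluster of replicate 1 there. The second, 4.48 at 3156974 to 3160189 (3216 bp), met a replicate 1 value of 3.00, and the third, 4.45 at 6506720 to 6508370 (1651 bp), met none. Where both lists had a cluster at these sites, the values differed by at least 1.48. The median absolute difference was 0.26 over all 1014 overlapping pairs on U. It was 0.32 for pairs under 2 kb and 0.35 for those of 2 to 3 kb, by replicate 1 width. The sites were picked for a high value in 1 replicate, which by itself favours a lower value in the other. No conclusion is drawn from the size of the difference. All 6 of these clusters lay wholly under clusters of the series list.

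Cover, width and value all changed along U. In steps of 1 Mb, the first 2 steps were covered over 65.6% and 69.8% in replicate 1 and over 70.9% and 74.2% in replicate 2. The tenth step was covered over 25.8% in replicate 1 and 38.7% in replicate 2. The decline was not even. The fifth step, from 4000001 to 5000000, dropped to 30.7% and 35.6%, and the seventh, from 6000001 to 7000000, recovered to 52.4% and 64.0%. Replicate 2 was above replicate 1 in each of the 10 full steps. The 3 most covered bins of 500 kb by the mean of both replicates were 1 to 500000 with 80.5% ± 3.2, 1000001 to 1500000 with 75.8% ± 2.4 and 5500001 to 6000000 with 68.4% ± 5.2 (SD, n = 2). The 3 least covered full bins were 9500001 to 10000000 with 28.6% ± 8.3, 4500001 to 5000000 with 30.5% ± 3.8 and 8000001 to 8500000 with 32.3% ± 6.7.

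Clusters became narrower towards the end of U. The first step held 70 clusters with a median width of 4149 bp in replicate 1 and 64 with 5654 bp in replicate 2. The tenth held 110 with 2018 bp and 152 with 2229 bp. The first bin of 500 kb had 34 and 29 clusters with median widths of 6031 bp and 7872 bp. The median value moved the other way, from 1.96 and 1.93 in the first step to 2.31 in both replicates in the tenth. Across clusters, the Spearman correlation of position with width was -0.30 in replicate 1 and -0.37 in replicate 2, and that of position with value was 0.18 and 0.13. In the series list these correlations were -0.31 and 0.06. The scaffolds' lengths were not analysed here, so a change in scaffold length along U and a change in HP1a cannot be told apart.

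**Figure D1:**
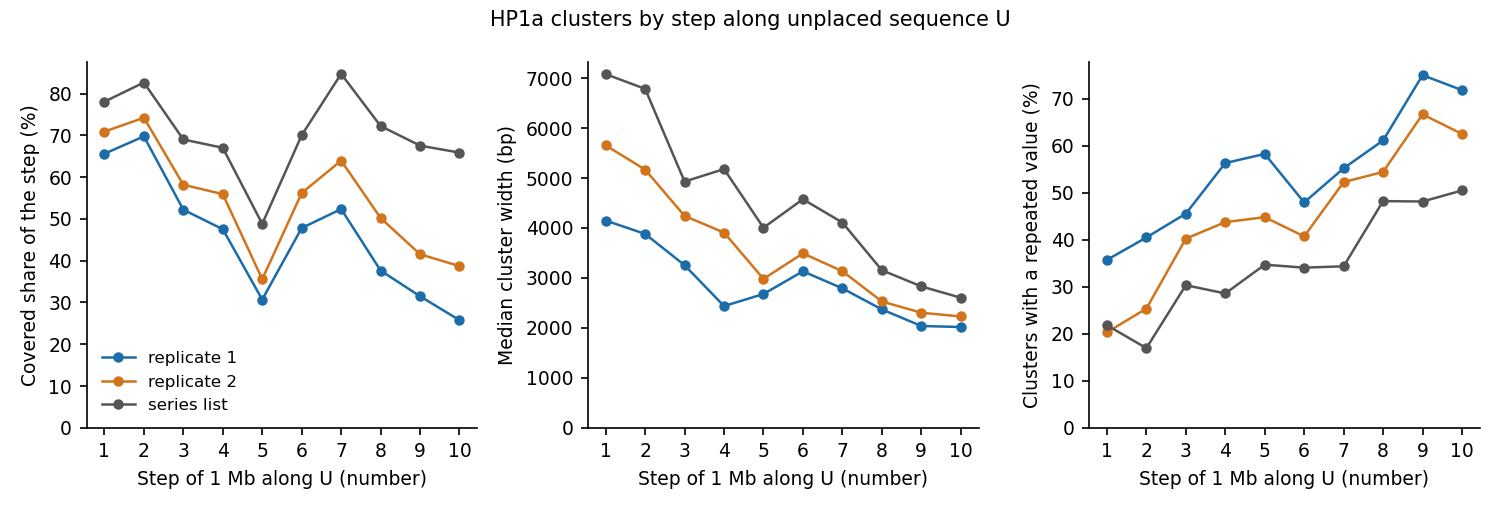
Covered share (%), median cluster width (bp) and share of clusters with a repeated value (%) in the 10 full steps of 1 Mb along U, with a line for each replicate and for the series list. Cover of the replicates drops in the fifth step (30.7% and 35.6% in replicates 1 and 2) and again towards the tenth (25.8% and 38.7%). That of the series list is highest in the seventh step (84.7%) and is 65.9% in the tenth. Widths shrink, and the repeated share of the replicates dips in the sixth step (47.9% and 40.7%) and peaks in the ninth.

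Gaps between neighbouring clusters were mostly short. Replicate 1 had 1097 gaps with a median of 3061 bp and replicate 2 had 1143 with a median of 2479 bp, against means of both replicates of 1921 ± 16 bp in assembled heterochromatin and 25159.5 ± 431 bp on the major arms. Gaps under 500 bp numbered 155 (14.1%) in replicate 1 and 202 (17.7%) in replicate 2. Gaps of 20 kb or more numbered 30 and 14 and held 15.9% and 9.86% of the gap length. In the series list, with more of U covered, the median gap was 1298 bp and 3 gaps reached 20 kb.

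A single gap stood far above the others in all 3 lists. It ran from 694681 to 819891 (125 kb) in replicate 1, from 693774 to 818267 (124 kb) in replicate 2 and from 695587 to 816061 (120 kb) in the series list. The next longest gaps were 41.8 kb in replicate 1 (4708051 to 4749835), 35.1 kb in replicate 2 (4498011 to 4533077) and 20.4 kb in the series list (2512163 to 2532525). The gap lay in the first 1 Mb step, 1 of the 2 most covered in each replicate but not in the series list. In assembled heterochromatin the longest gap was 113854 bp in replicate 1 and 113300 bp in replicate 2. Another gap of over 20 kb, from 1110311 to 1130451 (20.1 kb) in the series list, held no cluster of either replicate. The 2 next longest gaps of each replicate were broken by clusters of the other. In the next 2 longest gaps of replicate 1 (the shorter from 3161509 to 3194172), replicate 2 had 3 and 2 clusters over 9.93% and 8.05% of the length. In those of replicate 2 (the shorter from 2152941 to 2183416), replicate 1 had 2 and 4 clusters over 5.62% and 14.7%.

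Values on U repeated exactly. Rounded to 9 decimals, 619 of the 1098 values in replicate 1 (56.4%) and 561 of 1144 in replicate 2 (49.0%) were held by another U cluster of the same list, and so were 465 of 1182 (39.3%) in the series list. Counted over the whole list, the shares for U were 59.7%, 51.9% and 42.7%, against 31.6% of all clusters in replicate 1, 28.2% in replicate 2 and 22.6% in the series list. YHet was like U in the replicates, with 57.8% and 55.0%, but not in the series list, with 25.7% (9 of 35 clusters). Assembled heterochromatin had 23.5% and 20.5% in the replicates and 21.0% in the series list. The 1098 clusters of replicate 1 had 631 distinct values, and the 1144 of replicate 2 had 735. Repeats were not mere pairs. In replicate 1, 42 values were held by 5 or more clusters, which took in 353 clusters, and in replicate 2, 37 values took in 276 clusters. No exact value on U was shared between any 2 of the 3 lists.

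The largest sets of equal values were spread along U. In replicate 1, 23 clusters had the value 2.41, another 23 had 2.00, and 21 each had 3.41 and 2.73. The 23 clusters at 2.41 lay in 9 different 1 Mb steps between 897271 and 9583575, and the closest 2 of them were 2.55 kb apart. In the sets at 2.00, 3.41 and 2.73 the closest 2 clusters were 0.245, 8.13 and 30.5 kb apart. In replicate 2, the largest sets were 22 clusters at 1.99, 16 at 2.31 and 14 at 3.16, spread over 9, 8 and 7 steps. Their closest 2 clusters were 0.712, 22.1 and 1.21 kb apart. In the series list the largest sets were 30 clusters at 2.19 and 19 each at 2.77 and 2.51. There the closest 2 clusters were 1.31, 77.6 and 5.15 kb apart. Of the neighbouring pairs, 8 of 1097 in replicate 1, 3 of 1143 in replicate 2 and 4 of 1181 in the series list had equal values. Each set holds few of the U clusters, so few equal neighbours are likely however the sets are placed. The number that a random order would give was not computed, and no conclusion is drawn on placement.

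Clusters that shared a value in a replicate mostly had different values in the other. Of the 23 replicate 1 clusters at 2.41, 20 met a cluster of replicate 2, and these partners had 20 distinct values, from 1.55 to 3.24 with a median of 2.38. The other 23, at 2.00, had 21 partners with 20 distinct values, from 1.37 to 2.86 with a median of 2.23. The 21 at 3.41 had 18 partners with 16 distinct values, from 2.16 to 4.38 with a median of 3.07. The 15 partners of the replicate 2 set at 1.99 had 13 distinct values in replicate 1, from 1.73 to 3.34. The 19 partners of the replicate 1 set at 2.73 had 19 distinct values with a median of 2.35, below that of the set at 2.41.

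Most U clusters with a repeated value stood in a small whole-number ratio to the commonest value. Values were taken as powers of 2 and divided by the commonest value on U of the same list (by the higher where 2 tied). A small ratio was a fraction with both terms at most 20, to a relative tolerance of 1e-06. Among U clusters with a repeated value, 75.4% in replicate 1, 70.9% in replicate 2 and 71.0% in the series list had one. Among U clusters with a value held once, 6.47%, 6.52% and 7.39% did. These shares count clusters, so large sets weigh more. The commonest value, itself a repeated one, has a small ratio by definition. Over all clusters of the lists the share was 21.5% in replicate 1, 19.6% in replicate 2 and 14.0% in the series list, and on U it was 45.4% and 38.1% in the replicates, against 40.0% and 37.5% on YHet. In replicate 1 the values 2.00, 2.73, 3.00 and 3.41 were 3/4, 5/4, 3/2 and 2 times the fold at 2.41. In replicate 2 the values 2.31, 2.57, 3.16 and 3.31 were 5/4, 3/2, 9/4 and 5/2 times the fold at 1.99.

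Many of these values formed a ladder of whole multiples of 1 fold. In replicate 1, 161 U clusters (14.7%) lay on whole multiples, up to 20, of a 0.665-fold step, with 23 clusters at 6 steps, 23 at 8, 21 at 10, 15 at 12 and 21 at 16. From 6 to 12 steps, the odd multiples held fewer clusters than the even ones on either side, with 8 clusters at 7 steps, 10 at 9 and 5 at 11. In replicate 2, 121 clusters (10.6%) lay on whole multiples of a 0.993-fold step, with 22 clusters at 4 steps, 16 at 5, 13 at 6, 9 at 7, 7 at 8 and 14 at 9. The step was the fraction of the commonest value, by a whole number up to 10, that took in most clusters. That number was 8 in replicate 1 and 4 in replicate 2. The step was thus chosen on these same values, and odd and even multiples are not alike in the replicates. The share of all clusters of each list on these multiples is not given here. The values are the authors' own, and the numbers of reads that entered them are not known.

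**Figure D2:**
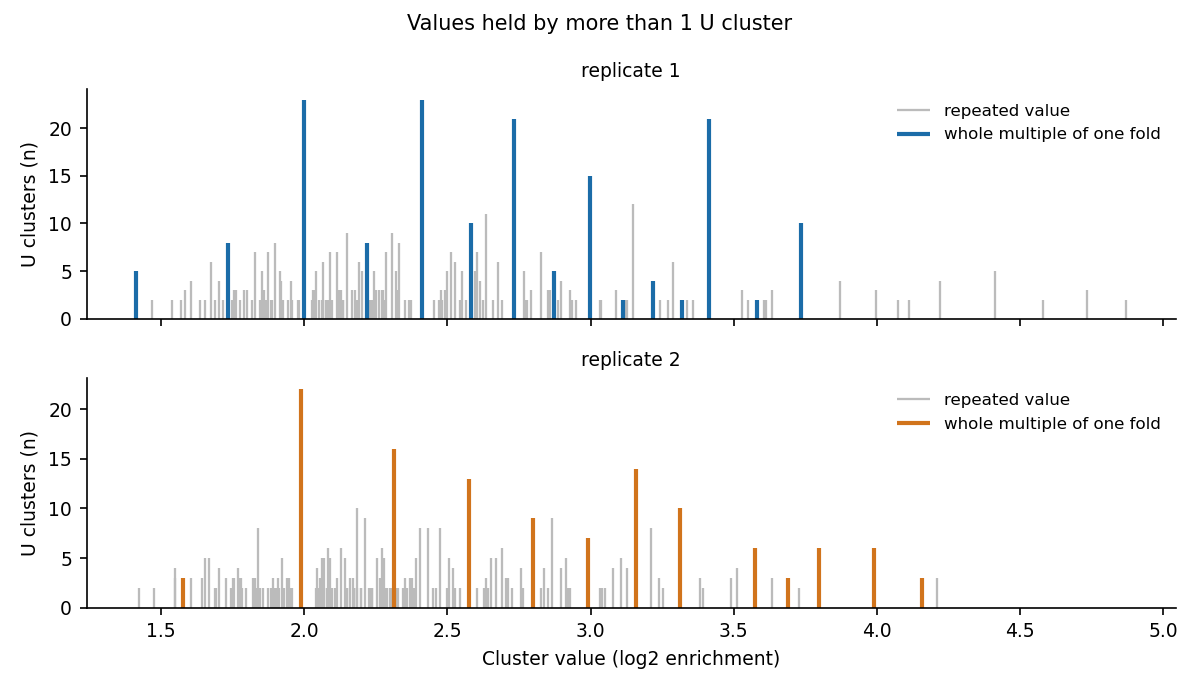
Number of U clusters (y axis) at each value (x axis, log2 enrichment) held by more than 1 U cluster in replicate 1 and replicate 2; coloured lines are whole multiples of a 0.665-fold step in replicate 1 and of a 0.993-fold step in replicate 2. The tallest lines, 23 clusters each at 2.00 and 2.41 in replicate 1 and 22 at 1.99 in replicate 2, are coloured ones.

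Repeated values belonged mostly to narrow clusters. U clusters with a repeated value had a median width of 2010 bp in replicate 1 and 2103 bp in replicate 2, against 4124 bp and 4410 bp for those whose value was held once. They held 32.1% of the summed width in replicate 1 and 26.0% in replicate 2. Their median values were higher, 2.37 and 2.31, against 2.11 and 2.15 for values held once. A width of exactly 2001 bp was the commonest on U, with 29 clusters in replicate 1 and 21 in replicate 2, and 28 and 20 of these had a repeated value. Elsewhere 9 of 2012 clusters in replicate 1 and 7 of 1908 in replicate 2 had that width. In the series list the commonest width was 1001 bp, its narrowest, with 52 clusters on U, and all 52 had a repeated value. That was 4.40% of its U clusters, against 46 of 2709 clusters elsewhere (1.70%).

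**Figure D3:**
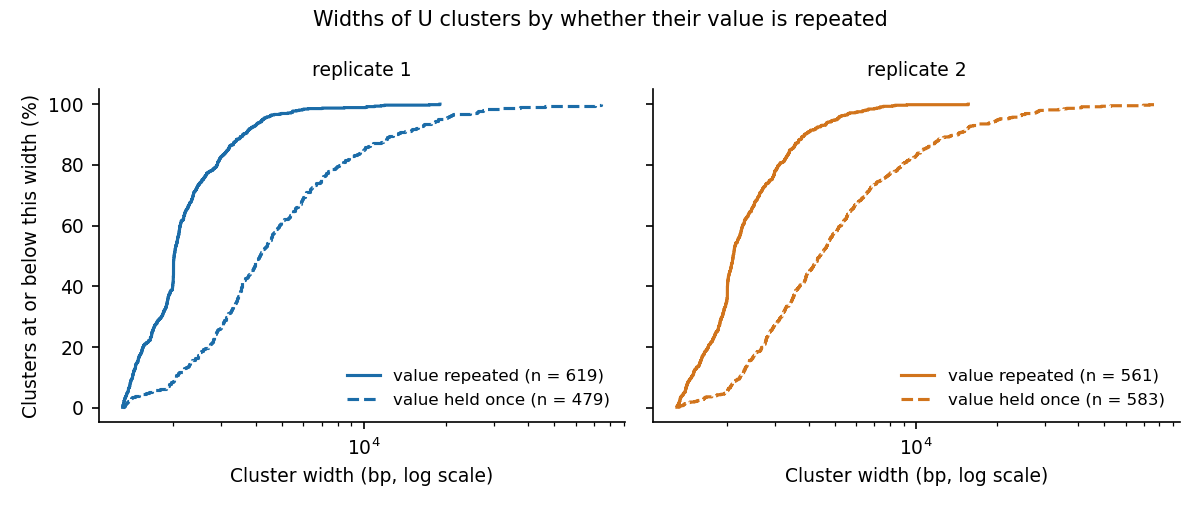
Share of U clusters (%) at or below each width (bp, log scale) in replicate 1 and replicate 2, for clusters with a repeated value (solid) and with a value held once (dashed). The solid curves lie to the left, with medians of 2010 and 2103 bp, against 4124 and 4410 bp for the dashed ones, and step up at 2001 bp.

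Among clusters of like width under 5 kb, repeats were more frequent on U than in assembled heterochromatin or on the major arms in both replicates, but not than on YHet. Among clusters under 2 kb, 89.1% on U, 78.0% in assembled heterochromatin and 15.6% on the major arms had a repeated value in replicate 1, with repeats counted over the whole list. The shares in replicate 2 were 92.3%, 69.8% and 14.9%. Among clusters of 2 to 3 kb they were 77.0%, 48.2% and 12.8% in replicate 1 and 67.5%, 52.6% and 10.8% in replicate 2, and among those of 3 to 5 kb 40.1%, 26.0% and 14.2%, and 38.0%, 14.0% and 9.02%. On YHet the shares in these 3 classes were 78.9%, 70.0% and 36.4% in replicate 1 (19, 10 and 11 clusters) and 100%, 76.9% and 42.9% in replicate 2 (6, 13 and 7 clusters), below U in replicate 1 and above it in replicate 2. From 5 kb the order of U and assembled heterochromatin was not the same in both replicates. Among clusters of 5 to 10 kb U had 12.8% and assembled heterochromatin 15.5% in replicate 1, and 16.5% and 8.54% in replicate 2. Under 2 kb, U had 312 and 233 clusters, assembled heterochromatin 50 and 53, and the part of these numbers in the shares was not tested.

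**Figure D4:**
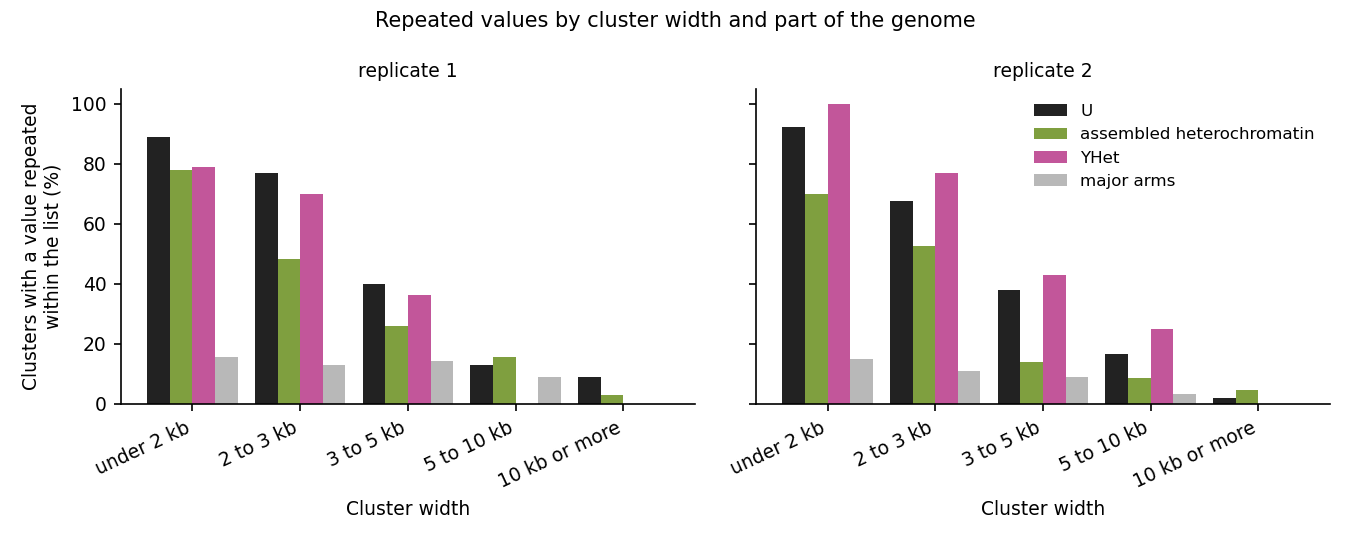
Share of clusters (%) whose value is repeated within the list, by cluster width, on U (black), in assembled heterochromatin (green), on YHet (pink) and on the major arms (grey), in replicate 1 and replicate 2. Under 2 kb the bars stand at 89.1% and 92.3% on U, at 78.9% and 100% on YHet and at 15.6% and 14.9% on the major arms, and on U they drop to 8.86% and 1.98% at 10 kb or more.

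Repeats became more frequent along U as widths fell. The share of clusters with a repeated value was 35.7% and 20.3% in the first step, 47.9% and 40.7% in the sixth and 71.8% and 62.5% in the tenth, in replicates 1 and 2. Of the 10 full steps the ninth had the highest share, with 99 of 132 clusters in replicate 1 and 104 of 156 in replicate 2 (66.7%). Over steps 1 to 5 it was 48.1% and 36.5%, and over the rest of U 62.1% and 56.2%. Within width classes the change was smaller and not always in the same direction. Under 2 kb the shares were 84.9% in steps 1 to 5 and 87.4% beyond in replicate 1, and 81.0% and 89.1% in replicate 2. At 2 to 3 kb they were 73.5% and 73.3% in replicate 1, 64.0% and 64.6% in replicate 2 and 44.6% and 52.8% in the series list. At 3 to 5 kb they were 33.3% and 35.8% in replicate 1 and 28.9% and 38.1% in replicate 2, and at 5 to 10 kb 7.25% and 12.5%, and 16.1% and 15.7%.

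Replicates found the same wide clusters on U and differed in the narrow ones. In replicate 1, 92.3% of U clusters met a cluster of replicate 2, against 87.9% over all sequences, and in replicate 2 79.5% met a cluster of replicate 1, against 81.4% over all sequences. Each of the 456 clusters of 3 kb or more in replicate 1 met a cluster of replicate 2, as did 248 of 312 (79.5%) under 2 kb. In replicate 2 the share was 44.2% under 2 kb, 76.3% at 2 to 3 kb, 94.5% at 3 to 5 kb, 97.7% at 5 to 10 kb and 100% at 10 kb or more. A wider cluster meets another by 1 bp more easily, so part of this order may follow from the definition. The base pair Jaccard index was 0.716 on U, against 0.926 in assembled heterochromatin, 0.935 on chromosome 4, 0.804 on the major arms and 0.551 on YHet.

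Clusters without a match were mostly those with repeated values. Of the 84 U clusters found in replicate 1 alone, 80 had a repeated value (95.2%), against 53.2% of the 1014 found in both. Of the 235 found in replicate 2 alone, 190 did (80.9%), against 40.8% of the 909 found in both. The unmatched clusters did not have lower values by their medians, though the reads behind them are unknown. Their median value was 2.58 in replicate 1 and 2.31 in replicate 2, against 2.23 and 2.22 for matched clusters. They were narrow, with medians of 1671 bp and 1955 bp, against 2792 bp and 3434 bp for matched clusters, and together spanned 0.147 Mb and 0.485 Mb. Among all U clusters under 2 kb, 84.9% in steps 1 to 5 and 87.4% beyond had a repeated value in replicate 1. In replicate 2 these shares were 81.0% and 89.1%. How much of the contrast between unmatched and matched clusters follows from width was not tested. Among matched clusters, 83 of replicate 1 met 2 or more clusters of replicate 2, and 151 of replicate 2 met 2 or more of replicate 1, up to 5.

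Repeated status carried over in part. Of the 539 pairs whose replicate 1 value was repeated, 269 (49.9%) had a partner with a repeated value, against 92 of the 475 (19.4%) whose replicate 1 value was held once. The pairs with both values repeated were narrow in both lists, with medians of 2001 bp and 2234 bp, while those with both values held once had medians of 4692 bp and 6233 bp.

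Values of the replicates were closer for wide clusters. For pairs whose replicate 1 cluster was 10 kb or more, the median absolute difference was 0.10 and the Spearman correlation 0.898 (79 pairs). At 5 to 10 kb they were 0.19 and 0.757 (125 pairs), at 3 to 5 kb 0.24 and 0.737 (252 pairs), at 2 to 3 kb 0.35 and 0.507 (310 pairs) and under 2 kb 0.32 and 0.616 (248 pairs). Over all widths the median absolute difference was 0.26 on U, against 0.14 in assembled heterochromatin, 0.28 on YHet, 0.10 on chromosome 4 and 0.11 on the major arms. Pairs with values repeated in both lists differed by a median of 0.36 with a Spearman correlation of 0.556, and pairs with values held once in both by 0.17 with 0.766. The median signed difference, replicate 2 minus replicate 1, was -0.01 over all U pairs. The pairs share libraries and some replicate 2 clusters, with 868 distinct ones in 1014 pairs, and are given as a description.

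**Figure D5:**
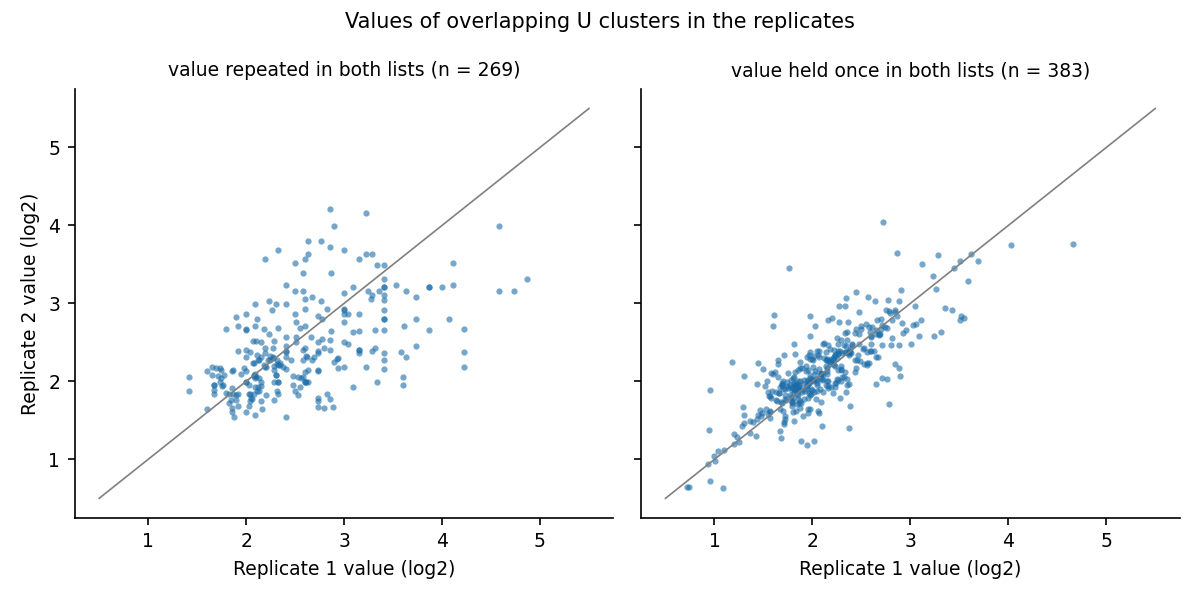
Value of the overlapping cluster in replicate 2 (y axis, log2) against the value in replicate 1 (x axis, log2) for pairs on U whose value is repeated in both lists (left, 269 pairs) or held once in both (right, 383 pairs); the grey line marks equal values. The left cloud is wider, with a median absolute difference of 0.36, against 0.17 on the right.

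The series list held nearly all that the replicates found on U and added to it, mostly in clusters that met a replicate. It met 1097 of the 1098 replicate 1 clusters and 1143 of the 1144 replicate 2 clusters, and 92.9% and 87.3% of them lay wholly inside it. Many of its clusters joined several of a replicate, with 206 that took in 2 or more of replicate 1, up to 7, and 202 that took in 2 or more of replicate 2, up to 6. Bases that no replicate covered but the series list did came to 1.23 Mb, or 12.3% of U. Of these, 0.792 Mb (64.3%) lay in clusters that met a replicate and 0.440 Mb (35.7%) in clusters that met neither. Of its U clusters, 263 (22.3%) met neither replicate, against 28.2% over all sequences, and 214 of these (81.4%) had a repeated value, against 131 of the 699 (18.7%) that met both. The 263 had a median width of 1629 bp, and 48 of them were exactly 1001 bp wide. A share of 76.0% of them lay beyond the first 5 steps, against 60.7% of those that met both. The narrowest U cluster was 1001 bp in the series list and 1301 bp in each replicate. The part of this difference in the number that met neither replicate was not tested.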

How the data were processed

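HP1a ChIP-seq of larvae of the third instar was analysed from 3 deposited lists of enriched clusters, with groups taken from the sample titles. The aligner was Bowtie 0.12.7, per the submitters' processing notes, and coordinates are FlyBase release 5, per the file headers. The cluster caller, its threshold, the way replicates were combined and the read numbers were not in the labels or headers. The deposited values are read as log2 enrichment per cluster. No header names the unit, and this reading rests on repeated values whose differences are log2 of ratios of small integers.

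Width is end minus start plus 1. Cover merges overlapping or touching clusters and divides by the header length. A cluster went to the step or bin that holds its midpoint. Clusters of the replicates were matched by at least 1 bp and paired by most shared bases. Named regions were the 3 widest and 3 highest clusters per replicate, the 3 largest sets of equal values and 3 longest gaps per list, and the 3 most and least covered full bins. Members and rules were chosen with earlier results of these data known. The functions recovered planted overlaps, repeats and ratios on simulated lists. Alternatives were a cut at the list median, joining within 1 kb, the series list, leaving out repeats or a replicate, a 50% overlap, mutual pairs, other rounding, list-wide repeats and a width of at least 3 kb. The gene table, on Release 6, was not used. Tools were scipy 1.17.1, numpy 2.4.6, matplotlib 3.10.9, pandas 2.3.3 and Python 3.11.15.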

Additional observations from a re-analysis of the deposited data

How the results depend on the processing

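Values below are means of both replicates, or of both directions for overlaps. Of 40 alternative values with a replicate SD or a count, 22 stayed within the SD (for counts, within 1.5 times), and 12 of those left out a replicate, which cannot move a mean of 2 beyond its SD. The other 18 moved. The Jaccard index and the median absolute difference have no replicate SD, so their 6 alternative values are given with no such judgement. With a cut at the list's median value, cover of U was 43.3%, the median value 2.35, the median gap 3749.5 bp, the Jaccard index 0.622 and the median absolute difference 0.25. With clusters within 1 kb joined, the median width was 3616 bp, the median gap 4324 bp and the Jaccard index 0.726. In the series list, cover was 70.5%, the median width 3515 bp, the median value 2.14, the median gap 1298 bp and the repeated share 39.3%. With repeated values left out of each list, 531 clusters remained per replicate on average, with a cover of 35.8% and a median width of 4267 bp. The median value was then 2.13 and the median gap 6530 bp. The overlap was 71.1%, the Jaccard index 0.609 and the median absolute difference 0.18. Here a cluster also lost any partner whose value was repeated in the other list. Against the other replicate's full list, 99.2% and 92.3% of clusters with a value held once in replicates 1 and 2 had a match. Pairs that were each other's best match differed by 0.25. The repeated share was 63.8% with 3 decimals. It was 12.4% when only clusters of at least 3 kb were kept and repeats were counted among these alone. A value shared only with a narrower cluster then no longer counted as repeated. Leaving out either replicate gave 1098 to 1144 clusters, a cover of 46.0% to 54.4%, a median width of 2529 to 2931 bp, a median value of 2.24 to 2.26, a median gap of 2479 to 3061 bp and a repeated share of 49.0% to 56.4%. The cause of these changes was not tested. No paired analysis was possible because the inputs have no list here, so ChIP and input of the same number could not be compared. Read depth is unknown, so how far depth limits the calls cannot be said.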
